A study of Mus musculus with 4 samples.

Results

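The 8 genes described here encode adult globins, serve haem synthesis or, for Bpgm, make a compound that lowers the oxygen affinity of haemoglobin. They are the adult alpha globin genes Hba-a1 and Hba-a2, the adult beta globin genes Hbb-bs and Hbb-bt, and Alas2, Fech, Slc25a37 and Bpgm. They were chosen by name, and all 8 were found among the 53801 genes of both deposited tables. The study sequenced RNA of blood cells in 2 mouse tumour models, B16, a melanoma line derived from C57BL/6 mice, and CT-26, a colon carcinoma line derived from BALB/c mice. In each model 1 library came from CD8+ cells sorted with MHC multimers, complexes of peptide and MHC that bind matching T-cell receptors. These are the circulating tumor-reactive lymphocytes (CTRL), and the other library came from a population labelled residual. The labels describe all 4 libraries as primary CD8+ lymphocytes of PBMC (peripheral blood mononuclear cells), genotype WT, and give no strain, age, tumour stage or number of pooled mice. Each group is 1 library, so a difference within a model has no replicate check.

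Haemoglobin is a tetramer of alpha-like and beta-like globin chains, each holding a haem group. Red cell precursors make both in very large amounts, and young red cells that have lost their nucleus still carry the messenger RNA into the blood. Haem is built from glycine and succinyl-CoA in a pathway that starts and ends in the mitochondrion. ALAS2, the red cell form of 5-aminolevulinate synthase, makes the first intermediate, SLC25A37 (mitoferrin 1) brings iron into the mitochondrion, and FECH (ferrochelatase) puts that iron into protoporphyrin. BPGM makes 2,3-bisphosphoglycerate, which lowers the oxygen affinity of haemoglobin.

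The libraries held between 37166063 and 74879891 reads in genes. Cd8a, a chain of the CD8 coreceptor, had 65 reads in the B16 library labelled residual and 15750 in B16 CTRL, and 446 against 54996 reads in CT-26. The residual libraries therefore go against their CD8+ label, and each direction below is relative to the library labelled residual. Among 12 erythroid marker genes, the summed level in B16 was 3589 CPM (reads per 1000000 reads in genes) in residual and 188 in CTRL, and in CT-26 it was 214 and 146. Slc4a1, the band 3 anion exchanger of red cells, had 36157 and 869 reads in B16 and 1996 and 262 in CT-26, so no library was free of red cell RNA. In bulk RNA, fewer cells of a type and less RNA per cell cannot be told apart. A gene was called lower or higher when its log2 ratio of CTRL over residual, taken from the deposited normalized counts with 1 added, was at least 1 in size, given at least 10 CPM in the library with more. Intervals are 95% exact counting intervals for ratios and 95% Wilson intervals for shares, and both cover counting error only.

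All 8 genes were lower in the CTRL library than in the residual library, in both models. In B16 they took 43.0% of all reads in genes in the residual library and 1.37% in CTRL. In CT-26 they took 11.04% and 0.661%. The rule of size called all 8 lower in each model, whereas it called 11.7% of the 9289 B16 genes at the level lower and 26.8% higher. In CT-26 it called 16.3% of 9514 genes lower and 14.5% higher. The median log2 ratio of the 8 genes was -5.19 in B16 and -3.71 in CT-26, beside medians of 0.47 and 0.23 over all genes at the level. Scaled to total reads, a setting that adds 0.84 to the median B16 gene, 6.43% of B16 genes were lower and 5911 of the 9289 were higher. Of all B16 calls 90.8% were then higher, against 69.5% with the deposited scaling. In CT-26 that setting adds 0.19 to the median gene, and 58.8% of calls were higher against 47.0%. The setting called 1981 of the 9514 CT-26 genes higher. All 8 genes were lower under it in both models.

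**Figure D1:**
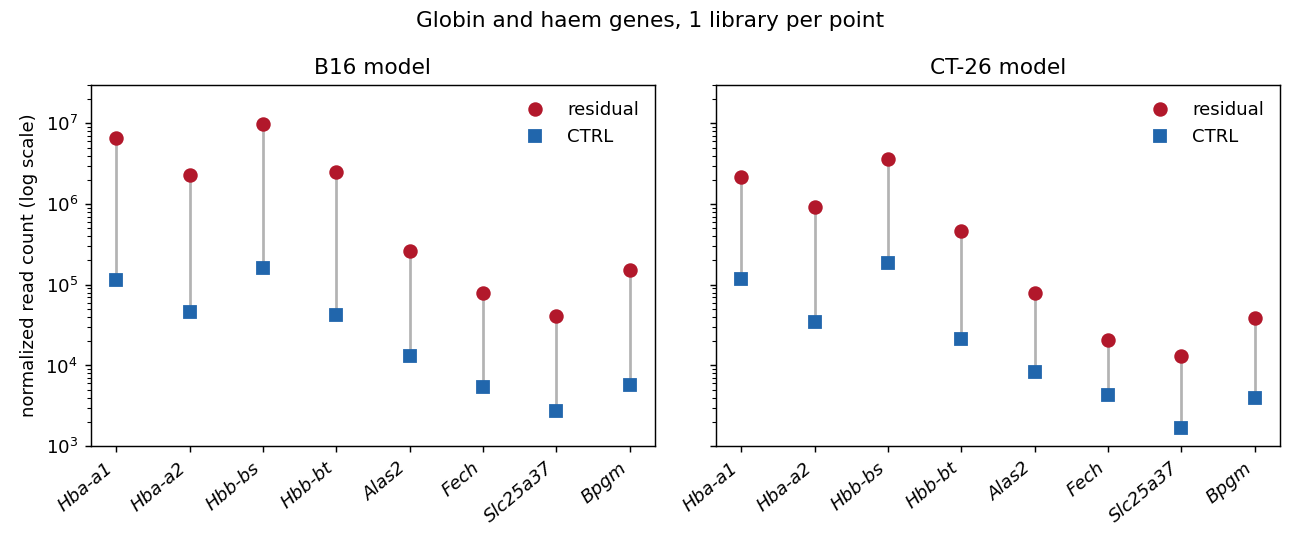
Normalized read count (log axis) of each of the 8 genes in the library labelled residual (circles) and the CTRL library (squares), for B16 (left) and CT-26 (right), 1 library per point. In each panel every circle lies above its square, and the 4 globins lie above the other 4 genes within either library.

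The alpha globin genes lie on chromosome 11, Hba-a1 (ENSMUSG00000069919) at 32283511 to 32284465 and Hba-a2 (ENSMUSG00000069917) at 32296489 to 32297298 on mm10, both on the plus strand. The adult beta genes lie on the minus strand of chromosome 7, Hbb-bs (ENSMUSG00000052305) at 103826534 to 103828096 and Hbb-bt (ENSMUSG00000073940) at 103812524 to 103813996. The copies of each pair are nearly the same, which limits how reads can be placed. In the reference, the 429 coding bases of the alpha pair differ at 1 base, and the 444 coding bases of the beta pair differ at 1 base as well. The stretches that hold the differing base are shown here from the GENCODE M21 transcripts, as coding bases 351 to 411 for the alpha pair and 384 to 444 for the beta pair, with that base in capitals:
Hba-a1: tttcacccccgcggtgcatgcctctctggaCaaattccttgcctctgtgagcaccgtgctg
Hba-a2: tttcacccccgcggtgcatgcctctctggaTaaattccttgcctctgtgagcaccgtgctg
Hbb-bs: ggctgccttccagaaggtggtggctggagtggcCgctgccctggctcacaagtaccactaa
Hbb-bt: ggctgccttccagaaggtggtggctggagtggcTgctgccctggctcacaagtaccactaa
The annotated main transcripts also differ in length, at 699 and 554 bases for Hba-a1 and Hba-a2 and 628 and 703 for Hbb-bs and Hbb-bt. Of all windows of 100 bases in the main transcript, 56.5% of those of Hba-a1 and 74.5% of those of Hba-a2 also occur in the other alpha copy. For Hbb-bs and Hbb-bt, 62.6% and 54.8% occur in the other beta copy. A window can lack a match because of an annotated end as well as a differing base, so these shares do not measure divergence alone. Read length and the treatment of reads that match both copies are in none of the sources at hand. The single values of a copy are therefore uncertain. The sum of a pair is firmer only if such reads were kept and placed in either copy.

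Hbb-bs had 7602423 reads in the B16 residual library and 209361 in B16 CTRL, and 2774984 and 243377 in the CT-26 libraries. It was the most counted gene of both residual libraries and ranked 4 in B16 CTRL and 7 in CT-26 CTRL. Its normalized count was 61.9-fold higher in residual than in CTRL in B16 (log2 ratio -5.95, -5.96 to -5.95) and 19.2-fold higher in CT-26 (-4.26, -4.27 to -4.26). Hbb-bt, the second adult beta gene, had 1920913 and 55303 reads in B16 and 355425 and 27426 in CT-26. Its log2 ratios were -5.89 (-5.90 to -5.88) and -4.45 (-4.47 to -4.43). Both beta genes thus stood at similar ratios within a model.

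Hba-a1 had 5113059 reads in B16 residual and 149648 in B16 CTRL, and 1654504 and 155099 in CT-26. Its log2 ratio was -5.87 (-5.87 to -5.86) in B16 and -4.17 (-4.18 to -4.16) in CT-26. Hba-a2 had 1771040 and 60488 reads in B16 and 708609 and 45372 in CT-26, with ratios of -5.64 (-5.65 to -5.63) and -4.72 (-4.73 to -4.70). In B16 Hba-a2 had the smallest ratio in size of the 4 globins, and in CT-26 the largest.

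Alas2 (ENSMUSG00000025270, chromosome X, 150547375 to 150570638, plus strand) had 201103 reads in B16 residual and 17062 in B16 CTRL, and 60694 and 10808 in CT-26. It was 20.1-fold lower in CTRL in B16 (log2 ratio -4.33, -4.35 to -4.31) and 9.46-fold lower in CT-26 (-3.24, -3.27 to -3.21). Bpgm (ENSMUSG00000038871, chromosome 6, 34476207 to 34505613, plus strand) had 117511 and 7546 reads in B16 and 29468 and 5198 in CT-26. Its ratios were -4.73 (-4.77 to -4.70) and -3.26 (-3.30 to -3.21). These genes of the first haem step and of 2,3-bisphosphoglycerate synthesis were lower in CTRL by less than any globin of the same model.

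Fech (ENSMUSG00000024588, chromosome 18, 64452914 to 64490251, minus strand) had 60193 reads in B16 residual and 7030 in B16 CTRL, and 15804 and 5645 in CT-26. It was 14.6-fold lower in CTRL in B16 (log2 ratio -3.87, -3.90 to -3.83) and 4.72-fold lower in CT-26 (-2.24, -2.28 to -2.19), the smallest ratio in size of the 8 genes in either model. Slc25a37 (ENSMUSG00000034248, chromosome 14, 69241848 to 69285112, minus strand) had 31754 and 3572 reads in B16 and 10226 and 2164 in CT-26. Its ratios were -3.92 (-3.97 to -3.87) and -2.99 (-3.06 to -2.93). The globins at -5.95 to -5.64 and the other 4 genes at -4.73 to -3.87 did not overlap in B16, nor did the ranges of -4.72 to -4.17 and -3.26 to -2.24 in CT-26.

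**Figure D2:**
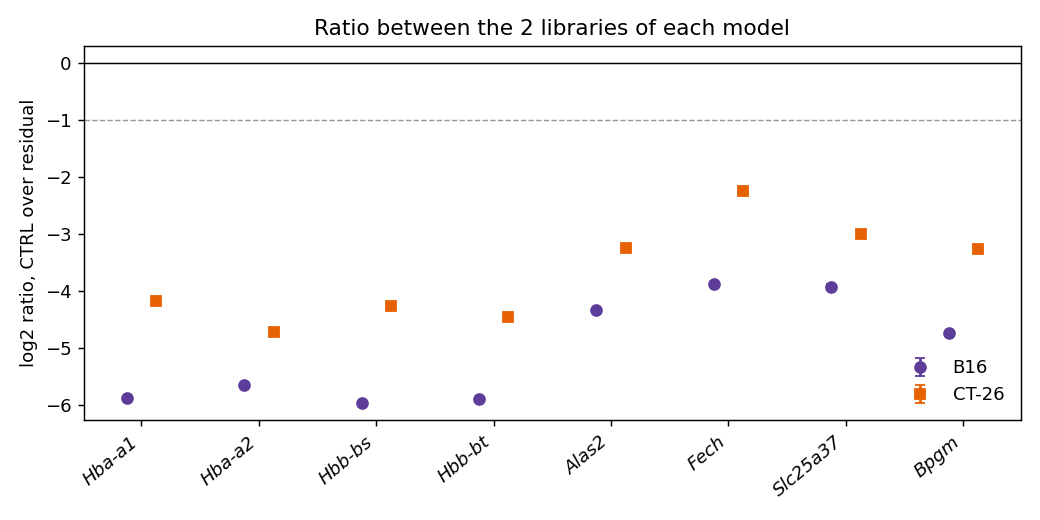
Log2 ratio of CTRL over residual normalized counts for each of the 8 genes in B16 (circles) and CT-26 (squares), with 95% counting intervals that are mostly narrower than the symbols and a dashed line at the limit of -1. All 16 ratios lie below the dashed line, and each B16 ratio lies below that of CT-26.

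The B16 ratio was below the CT-26 ratio for every one of the 8 genes, by 0.92 (Hba-a2) to 1.70 (Hba-a1) on the log2 scale. This difference between models was not tested, since each model has 1 library per group. In the authors' deposited table the log2 folds of the 8 genes ran from -4.84 (Hbb-bs) to -3.32 (Fech) in B16, and from -3.70 (Hba-a2) to -1.94 (Fech) in CT-26. The unadjusted p-values in the authors' deposited table were 0.000523 to 0.00846 in B16 and 0.0153 to 0.127 in CT-26, on these same single libraries.

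A fit over all 4 libraries, with population and model as terms and 1 residual degree of freedom, was the single test that the design allowed. It assumes the same population difference in both models. The SE given with its ratios is back-calculated, as the log2 ratio in size divided by the square root of the test's F statistic. By edgeR's quasi-likelihood test with Benjamini-Hochberg adjustment, 0 of the 18749 genes tested passed an adjusted p of 0.05, or 0.0% in either direction, and 2998 had an unadjusted p under 0.05. The 8 genes had log2 ratios of -5.33 (SE 0.893, Hba-a2) to -3.20 (SE 0.649, Fech) in that edgeR fit, unadjusted p of 0.00184 to 0.0163 and adjusted p of 0.191 to 0.249. Slc25a37 had the smallest adjusted p in edgeR (log2 ratio -3.61, SE 0.479) and Hbb-bs the largest (-5.26, SE 1.30). DESeq2's Wald test called 1499 genes lower and 300 higher of 19887 tested, among them Alas2, Bpgm, Slc25a37 and Fech as lower. It called no adult globin, with adjusted p of 0.138 to 0.217 for the 4 adult globins. All 8 genes were thus among the 2998 with an unadjusted p under 0.05 and did not pass the adjustment over all genes.

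Levels of different genes were compared per kilobase of merged exon length. In B16 residual, the level of Hbb-bs was 253375 CPM per kilobase, of Hba-a1 161175, of Hbb-bt 69940 and of Hba-a2 67964. Alas2 followed at 2142, Bpgm at 838, Slc25a37 at 135 and Fech at 111 CPM per kilobase. As a ratio, the step from the lowest globin to Alas2 was thus far larger than any step between neighbouring globins. In B16 CTRL the order from the top was Hbb-bs at 7335, Hba-a1 at 4959, Hba-a2 at 2440, Hbb-bt at 2117, Alas2 at 191, Bpgm at 56.6, Slc25a37 at 15.96 and Fech at 13.7 CPM per kilobase. In CT-26 residual the levels ran from 71095 (Hbb-bs) to 22.5 (Fech) in that same order, and in CT-26 CTRL from 4232 (Hbb-bs) to 5.45 (Fech) and 4.80 (Slc25a37). The order of the top 2 and of Alas2 and Bpgm was thus shared by the 4 libraries, while Hba-a2 and Hbb-bt, and Fech and Slc25a37, changed places. With 1 library per group, it cannot be said which neighbours in these orders differ beyond their spread.

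The share of each copy in its pair does not depend on how libraries are scaled. Hbb-bt made up 20.2% (20.1 to 20.2) of the beta globin reads in B16 residual and 20.9% (20.7 to 21.1) in B16 CTRL. In CT-26 it made up 11.4% (11.3 to 11.4) and 10.1% (10.01 to 10.2). The share was therefore closer within a model than between the models. Inbred mouse strains differ in their beta globin haplotype, and reads of any haplotype are counted here under the names that the reference gives. The labels do not name the strains, so haplotype and tumour model cannot be told apart in this difference.

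Hba-a2 made up 25.7% (25.7 to 25.8) of the alpha globin reads in B16 residual, and 28.8% (28.6 to 29.0) in B16 CTRL, with 30.0% (29.9 to 30.0) in CT-26 residual and 22.6% (22.5 to 22.8) in CT-26 CTRL. These shares did not separate the models or the populations. Alpha genes together held 42.0% (41.9 to 42.0) of the adult globin reads in B16 residual, and 44.3% (44.1 to 44.4) in B16 CTRL, with 43.0% (43.0 to 43.1) in CT-26 residual and 42.5% (42.4 to 42.7) in CT-26 CTRL. Beta reads outnumbered alpha reads in all 4 libraries, over a 34.8-fold range of total globin reads between 471274 and 16407435. Since the treatment of reads that match both copies is not known, alpha and beta reads may not have been counted alike.

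**Figure D3:**
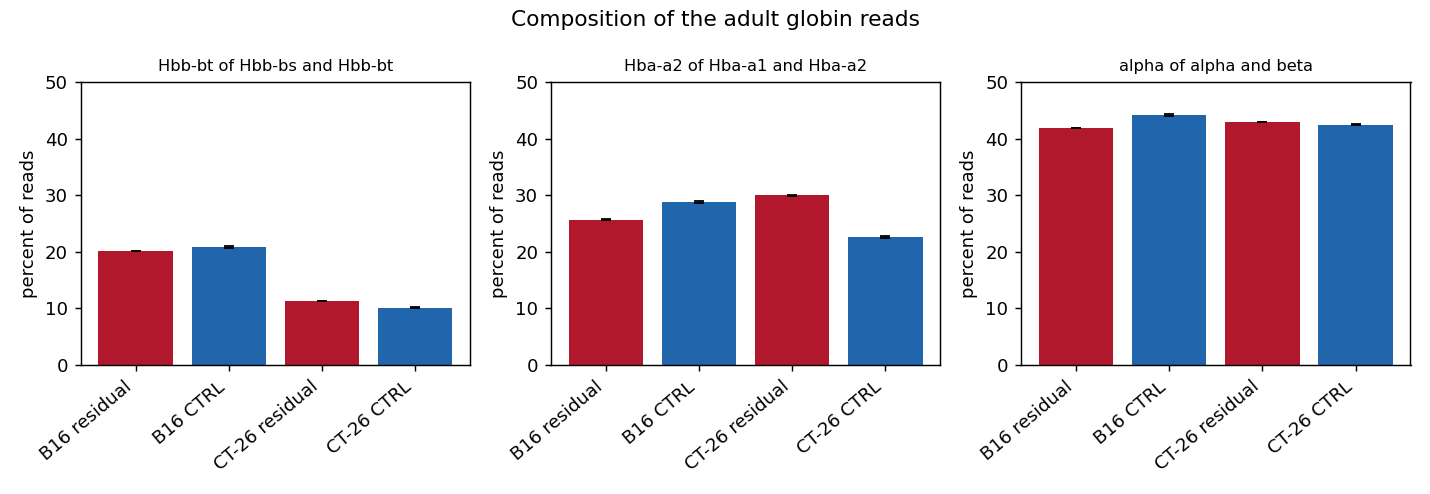
Percent of reads for Hbb-bt among the adult beta globin genes (left), Hba-a2 among the adult alpha genes (middle) and alpha among all 4 adult globins (right), per library, red for residual and blue for CTRL, with 95% Wilson intervals. The Hbb-bt bars stand near 20% in both B16 libraries and near 10% in both CT-26 libraries, and the alpha bars stay between 42.0% and 44.3%.

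Counted as reads per 1000000 adult globin reads of the same library, the other 4 genes were close to each other in the 2 residual libraries. Alas2 had 12257 reads per 1000000 globin reads (12204 to 12310) in B16 residual and 11048 (10961 to 11136) in CT-26 residual. Slc25a37 had 1935 (1914 to 1957) and 1861 (1826 to 1898), Fech 3669 (3640 to 3698) and 2877 (2832 to 2922), and Bpgm 7162 (7121 to 7203) and 5364 (5303 to 5426). The B16 value was 1.04-fold to 1.34-fold that of CT-26, although the B16 library held 16407435 globin reads and the CT-26 library 5493522. Whether globin reads of both models were counted equally well is not known. A difference there would move every ratio between models per globin read, those of the markers below included.

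The erythroid markers did not share this balance. Slc4a1 had 2204 reads per 1000000 globin reads (2181 to 2227) in B16 residual and 363 (348 to 380) in CT-26 residual, a 6.07-fold difference. Trim10, a TRIM family protein of red cell precursors, had 1059 and 162. Over the 11 markers with reads in both libraries, the median of the B16 value over the CT-26 value was 6.07, with 10 above 1, and Xpo7 was lowest at 0.450. Rhag, of the Rh complex, had 2058 reads in B16 residual and 0 in CT-26 residual, a count that allows up to 3 reads.

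The 4 genes stood higher against globin in CTRL than in residual, as did most genes at the level, and by less than the median of 4 related lists. In B16 the number of reads per 1000000 globin reads was 2.93-fold higher in CTRL for Alas2, 2.22-fold for Bpgm, 4.04-fold for Fech and 3.89-fold for Slc25a37. In CT-26 the values were 2.08, 2.06, 4.16 and 2.47. By the same measure, the B16 medians were 12.0 for the haem synthesis enzymes (9 of 9 higher, Alas2 and Fech included), 20.2 for iron and haem transport (17 of 18, Slc25a37 included), 32.9 for haem breakdown and iron storage (6 of 6) and 19.1 for the redox genes (5 of 5). In CT-26 the medians of these lists were 18.4 (9 of 9), 11.5 (15 of 18), 5.22 (5 of 6) and 5.77 (5 of 5). The 4 globins ranked 66 to 88 from the lowest log2 ratio among the 9289 B16 genes at the level. In CT-26 they ranked 437 to 519 among 9514. The great majority of all genes at the level thus stood higher against globin in CTRL, so such counts do not set these lists apart. Slc4a1 stood at 0.831-fold in B16 and 1.53-fold in CT-26, and Trim10 at 1.11-fold and 1.97-fold. Among the erythroid markers with reads in both libraries of a model, 5 of 11 stood higher against globin in B16 CTRL and 9 of 11 in CT-26 CTRL. T-cell markers stood at a summed 3592 CPM in B16 CTRL and 6519 CPM in CT-26 CTRL, against 384 and 1434 CPM in residual, and the part of T-cell RNA in the shift of the 4 genes was not tested.

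**Figure D4:**
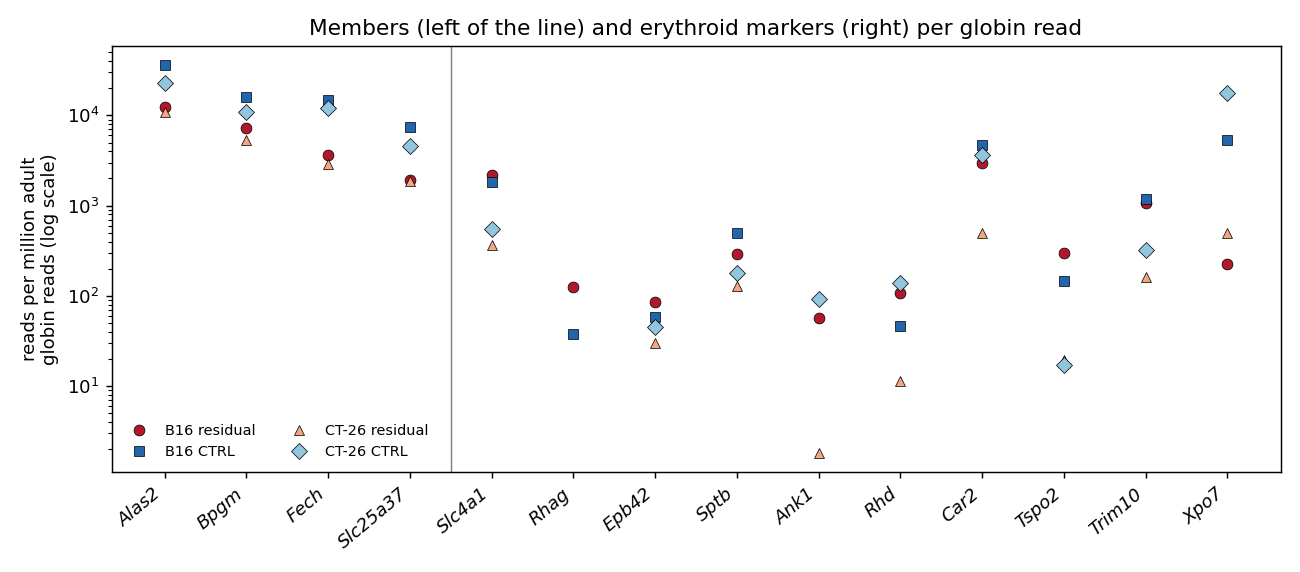
Reads per 1000000 adult globin reads (log axis) in the 4 libraries for the 4 other genes (left of the line) and 10 erythroid marker genes (right), with libraries at 0 reads left out. For the 4 genes the CTRL symbols lie above the residual symbols and the 2 residual symbols differ by at most 1.34-fold, whereas Slc4a1 and most markers lie higher in B16 residual than in CT-26 residual.

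The promoters of these genes are shown as a description of their sequence, and whether it bears on the ratios was not tested. The bases are the 150 before the RefSeq start on GRCm38.p6, and the window of Slc25a37 was not matched. Capitals mark 4 motifs found by letter search. The GATA motif was searched as AGATAA, and also with T as the first base, G as the last base or both. The CACCC motif was searched as CCNCNCCC, which also covers GC boxes. These motifs and CCAAT were searched on both strands, and TATAA on the gene's strand.
Hba-a1 (chr11:32283522-32283671, plus strand): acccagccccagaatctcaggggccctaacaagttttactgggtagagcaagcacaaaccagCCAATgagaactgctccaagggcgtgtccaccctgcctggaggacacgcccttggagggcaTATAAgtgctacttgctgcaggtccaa
Hbb-bs (chr7:103827929-103828078, minus strand): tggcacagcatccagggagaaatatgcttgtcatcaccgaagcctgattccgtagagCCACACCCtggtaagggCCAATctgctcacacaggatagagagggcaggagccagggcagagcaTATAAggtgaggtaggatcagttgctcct
Hbb-bt (chr7:103813924-103814073, minus strand): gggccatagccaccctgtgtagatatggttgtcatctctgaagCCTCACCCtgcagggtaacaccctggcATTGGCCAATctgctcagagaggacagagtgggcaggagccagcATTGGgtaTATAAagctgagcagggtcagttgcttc
Alas2 (chrX:150547267-150547416, plus strand): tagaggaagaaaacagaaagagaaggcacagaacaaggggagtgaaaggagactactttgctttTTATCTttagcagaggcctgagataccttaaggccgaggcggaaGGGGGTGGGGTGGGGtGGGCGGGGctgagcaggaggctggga
Bpgm (chr6:34476206-34476355, plus strand): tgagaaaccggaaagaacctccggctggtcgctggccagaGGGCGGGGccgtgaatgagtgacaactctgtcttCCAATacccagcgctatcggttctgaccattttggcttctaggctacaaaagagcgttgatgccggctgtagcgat
The Hba-a2 window is not printed, since it holds the bases of the Hba-a1 window shifted by 3. The longer RefSeq windows of this pair, which start 250 bases before the gene start and run past it, share 297 bases with 0 mismatches. The adult beta windows are 70.9% identical in alignment, far less than their coding bases. The globin windows hold TATAA once each, first base at -30 to -27, and CCAAT. The beta windows also hold CACCC once each, at -93 to -86 in Hbb-bs and -107 to -100 in Hbb-bt. The Alas2 window holds the GATA motif once, at -86 to -81, and CACCC 4 times with overlaps. The Bpgm window holds CCAAT and CACCC once each and no TATAA. Among 32851 promoter windows of the same length, 15.997% held the GATA motif, 38.1% CACCC, 24.5% CCAAT and 9.99% TATAA. A match describes the letters and shows no binding.

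Other globin genes were counted at far lower levels. Hbq1b, a theta globin gene of the alpha cluster, had 3876 reads in B16 residual and 67 in B16 CTRL (log2 ratio -6.60), and 647 and 50 in CT-26 (-4.41). Hbq1a had 848 and 29 reads (-5.58) in B16 and 184 and 17 (-4.09) in CT-26, where it was under the level for a call. The embryonic genes Hbb-y, Hbb-bh1 and Hba-x had at most 87 reads in any library. Of 12 symbols of this group 10 were in the tables, 2 were called lower in B16 and 1 in CT-26, and the median log2 ratios of those with reads were -4.39 and -4.09.

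The enzymes of haem synthesis did not move as a group. Of 9 enzymes, 5 were called lower in B16 and 0 higher, and in CT-26 3 were lower and 1 higher. The medians were -2.29 and -0.09. Beyond Alas2 and Fech, the B16 calls included Urod at -3.29 (14803 and 2587 reads) and Alad at -2.29 (2759 and 962 reads), which act in the middle of the pathway. In CT-26 Urod stood at 0.05 (2541 and 4443 reads), while Alad was called lower at -1.09 (1653 and 1305 reads). Urod was thus called in B16 and not in CT-26, a difference between models that was not tested.

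Alas1, the synthase form of most other cells, stood at -0.89 in B16 (938 and 864 reads) and -0.90 in CT-26 (2641 and 2378 reads), under the limit of size. Cpox stood at -0.88 and 0.21, and Ppox at 0.05 and -0.09. Uros, which closes the porphyrin ring, was called higher in CT-26 at 1.10 (0.99 to 1.21) and stood just under the limit in B16 at 0.97 (0.81 to 1.13). Under scaling to total reads, 1 enzyme was called higher in B16 with 5 lower, and in CT-26 1 higher with 2 lower. The CT-26 median turned positive at 0.10. Over all genes at the level that setting called 5911 of 9289 higher in B16 and 1981 of 9514 in CT-26. None of the 9 enzymes passed an adjusted p of 0.05 in the edgeR fit over both models.

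**Figure D5:**
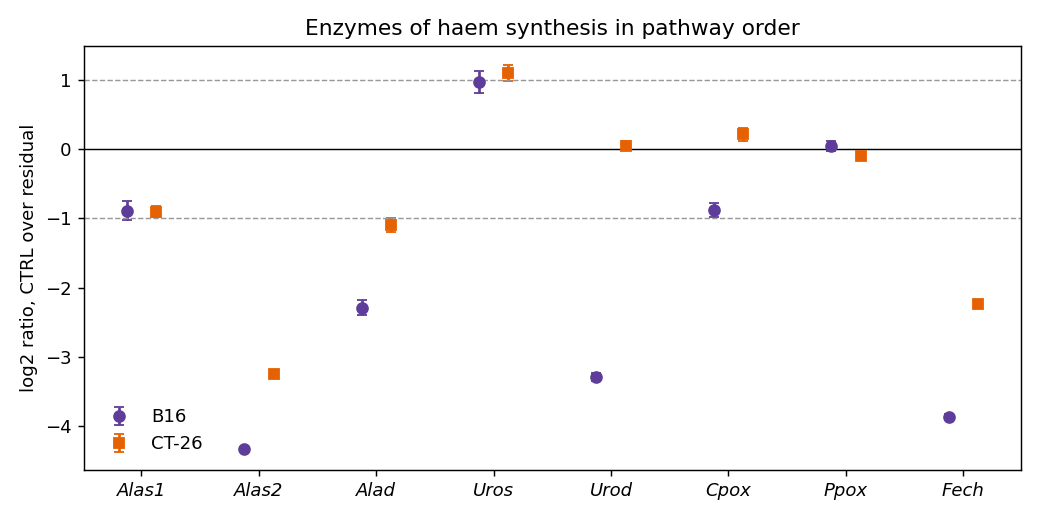
Log2 ratio of CTRL over residual for 8 enzymes of haem synthesis, ordered along the pathway, in B16 (circles) and CT-26 (squares), with 95% counting intervals and dashed lines at the limits of -1 and 1. Alas2 and Fech lie below -1 in both models, Urod lies below -3 in B16 and above 0 in CT-26, and Uros lies near 1 in both.

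Of 18 genes of iron and haem transport, 8 were called lower and 1 higher in B16, and 6 lower and 1 higher in CT-26. The medians were -1.59 and -0.77. Slc25a39, a mitochondrial carrier of glutathione, was at -3.99 in B16 (52799 and 5652 reads) and -2.33 in CT-26 (27160 and 9093 reads). Tspo2, an erythroid membrane protein, was at -6.88 in B16 (4868 and 69 reads) and at -4.30 in CT-26, where 108 and 8 reads lay under the level for a call. Slc40a1, the iron exporter ferroportin, was at -3.66 and -6.32, and Steap3, a ferrireductase, was at -7.01 in CT-26 with 558 and 6 reads and had 58 and 12 reads in B16. Macrophages also express ferroportin, and the monocyte markers had medians of -1.55 in B16 and -5.97 in CT-26, whose part was not tested. The gene called higher in both models was Slc11a2, the iron importer DMT1, at 1.55 (508 and 2540 reads) and 2.54 (971 and 9511 reads).

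Haem breakdown and iron storage genes were called lower for 3 of 6 members in B16 and 6 of 6 in CT-26, with 0 higher and medians of -1.11 and -1.94. Blvrb, a biliverdin reductase abundant in red cells, was at -4.39 in B16 (21554 and 1757 reads) and -2.35 in CT-26 (1145 and 378 reads). The ferritin genes Ftl1 and Fth1 were at -2.67 and -2.03 in B16 and -2.20 and -1.68 in CT-26. Hmox1, haem oxygenase 1, was at -0.20 in B16 (843 and 1252 reads) and at -5.31 in CT-26 (1984 and 83 reads). Scaled to total reads, 2 of these genes were called higher in B16, beside 5911 of the 9289 genes at the level.

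Red cell redox genes were called lower for 5 of 5 members found in B16 and for 3 of 5 in CT-26, with medians of -1.63 and -1.77. Prdx2, a peroxiredoxin abundant in red cells, was at -4.86 (68466 and 4030 reads) and -1.77 (5355 and 2649 reads), and Gpx1, a glutathione peroxidase, at -3.36 and -3.08. Glrx, a glutaredoxin, was at -1.63 and -2.20. Sod1, the cytosolic superoxide dismutase, was at -1.61 in B16 and stood at -0.25 in CT-26. Under scaling to total reads, 2 of 5 were lower in B16. Among 9 genes of lower glycolysis, Bpgm was the one called lower in either model, and the medians were -0.08 and -0.04. Minpp1, a phosphatase that also acts on 2,3-bisphosphoglycerate, stood at 0.95 and 0.60, Pkm at -0.62 and -0.85, and Eno1 at 0.32 and -0.00. The 2 medians turned positive under scaling to total reads, at 0.76 and 0.16.

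Transcription factors of the red cell lineage and the erythropoietin receptor gene were counted at low levels. Tal1 had 114 reads in B16 residual and 0 in B16 CTRL, and 37 and 1 in CT-26, and Klf1 had 101, 19, 10 and 21 reads in the 4 libraries in that order. Of 9 genes, 4 reached the level in each model, 1 was called lower in B16 and 2 in CT-26. Nfe2, which neutrophils and platelets also express, was at -1.97 and -6.51, and Lmo2 stood at 0.19 in B16 and was called lower at -3.79 in CT-26. Ldb1 stood at 0.42 and 0.93 and Zfpm1 at 0.72 and 0.28. Under scaling to total reads, 3 of these genes were called higher in B16 and 1 in CT-26. That setting called 5911 of all 9289 B16 genes at the level higher, and 1981 of 9514 in CT-26.

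The erythroid markers were called lower for 12 of 12 genes in B16, with a median of -6.25, and for 5 of 12 in CT-26, with a median of -3.31 over 11 with reads. Ank1, the red cell ankyrin, had 931 reads in B16 residual and 0 in CTRL, at least 529-fold lower with the floor set at 3 reads in a library, and 10 and 43 reads in CT-26. Rhag was at -7.51 in B16, and Rhd at -7.01 in B16 with 62 and 65 reads in CT-26. Xpo7 was called lower in B16 at -1.32 and stood at 0.85 in CT-26. In B16 several markers were thus further apart between the libraries than any of the 8 genes.

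Markers of several other blood cells also differed between the libraries. Platelet markers were called lower for 6 of 7 genes in B16 and 5 of 7 in CT-26, and their summed level in B16 was 672 CPM in residual and 109 in CTRL, and in CT-26 134 and 26.1. Of these, Gp9 was at -4.20 in B16 and stood at -2.67 under the level in CT-26, and Ppbp was at -3.97 and -2.68. Neutrophil markers were lower for 8 of 8 in both models, with sums of 9406 and 268 CPM in B16 and 8437 and 89.2 in CT-26, and Ngp, Ltf and Camp had 0 reads in B16 CTRL. Ly6g, a neutrophil surface protein, was at -7.28 and -5.98. Monocyte markers were lower for 4 of 6 and 5 of 6, with sums of 4796, 3115, 9115 and 328 CPM in the same order of libraries. Cd14 was at -4.73 and -7.03, Fcgr1 at -1.63 and -6.88 and Lyz2 at -1.51 and -6.26, while Csf1r stood at -0.22 in B16 and was lower at -5.68 in CT-26. NK-cell markers were lower for 3 of 5 in each model, with sums of 287, 250, 1647 and 229 CPM. Klra8 was at -1.62 in B16 and stood at -5.37 under the level in CT-26. Klrb1c was at -1.44 and -4.83 and Gzma at -1.001 and -3.27, while Ncr1 stood at -0.65 in B16 and was lower at -6.62 in CT-26. Scaled to total reads, the B16 monocyte calls went from 4 to 1 (median -0.71), the B16 NK-cell calls from 3 to 0 (median -0.16) and the B16 platelet calls from 6 to 5, while the CT-26 calls of these lists and the neutrophil calls stayed at the same number. B-cell markers were higher for 5 of 6 in B16 and lower for 6 of 6 in CT-26, with sums of 696, 5926, 758 and 216 CPM, and Pax5 stood at 0.48 in B16 and was lower at -2.58 in CT-26. T-cell markers were higher for 7 of 8 in both models, with Cd8b1 at 8.32 and 5.80 and Cd3e at 2.25 and 1.90, and Cd4 was lower in both. What part these cells have in the ratios of the 8 genes was not tested.

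The other genes nearest in pattern to the 8 were found from log2(CPM + 1), centred over the 4 libraries. Distance was the root mean square difference from the mean of the 8. The search covered 9344 genes with at least 10 CPM in a library. It left out unnamed genes such as those with Gm and Rik symbols, pseudogenes, and immunoglobulin and T-cell receptor segments. Ube2l6, an ISG15-conjugating enzyme, was nearest at 0.16, and its log2 ratio was -4.83 in B16 and -4.04 in CT-26. Isg15 followed at 0.20, then the platelet genes Pf4 at 0.26 and Gp1bb at 0.28, and Rsad2, an interferon-induced gene, at 0.32. Nrgn, neurogranin, stood at 0.37. The last named were Olfr67 at 0.37, Hbq1b at 0.38 and Sptb, a spectrin chain, at 0.39. Olfr67, an olfactory receptor gene, lies 20703 bases from Hbb-bt on chromosome 7 and had 1415 reads in B16 residual and 41 in B16 CTRL, and 557 and 32 in CT-26. The 8 genes themselves lay between 0.20 (Bpgm) and 0.65 (Fech) from their mean, so several of these genes lay nearer to the mean than most of the 8. The likeness rests on 4 libraries and has no test.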

How the data were processed

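RNA was amplified with a SMART-Seq v4 ultra-low input kit (Takara), per the labels' protocols. Tools in the submitters' processing notes, with no role given, are HTSeq 0.11.2, STAR 2.7.3a and DESeq2, and the build is mm10. The strand setting of the counting was not stated. The authors deposited, per model, raw read counts per gene and normalized read counts, a signal equal to the count divided by 1 size factor per library (0.766 and 1.31 for B16 residual and CTRL, 0.770 and 1.30 for CT-26). The log2 fold and the p-value, which is not adjusted, are the authors' own, per the file headers. Since the tables were normalized separately, normalized counts were compared within a model, and levels set across models are CPM of the raw counts or ratios within a library.

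Ratios, intervals and shares were computed in Python 3.11.15 with scipy 1.17.1. The fit used edgeR 4.0.16 (TMM factors, filterByExpr), with DESeq2 1.42.0 as an alternative. The rule of size and the fit were tested on simulated data. No group holds replicates, so neither the authors' p-values nor those of the fit measure a spread between replicate samples. In the fit with population and model as terms, the residual is how far the population ratio differed between B16 and CT-26. The labels do not tie the samples to separate mice. The design's level of 10 CPM equals 372 to 749 reads. GENCODE M21, which is on mm10, gave positions and exon lengths, and RefSeq gave the promoters.

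The 8 genes and the other 14 lists (124 symbols with the 8, of which 3 were not in the tables) were chosen with earlier results of these data known. Named were the 8 genes, of each list up to 4 members at the level with the largest ratio in size, and the 10 genes nearest in pattern. The further enzymes of haem synthesis, and Slc11a2, the embryonic globins, Tal1, Klf1, Slc4a1, Trim10, Xpo7 and Cd79a, were added after their values were seen. No promoter of a gene on chromosome 18 is printed. Some genes that this rule picks are not reported here, although list counts and sums include them.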

Additional observations from a re-analysis of the deposited data

Results flagged for a closer look

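B-cell marker genes moved in opposite directions in the 2 models, past the rule of size in both. The log2 ratios of CTRL over residual in B16 and CT-26 were 2.49 and -2.24 for Ms4a1, 2.32 and -2.26 for Cd79a, 2.66 and -2.08 for Cd79b, and 2.90 and -1.52 for Fcer2a. With 1 library per group the difference was not tested. The 8 globin and haem genes were lower in CTRL in both models beside it.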

How the results depend on the processing

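All 8 genes were called lower in B16 and in CT-26 under each of the 9 alternatives run per model (other scalings, smaller and larger pseudocounts, a stricter limit of size, no level, a higher level and the authors' fold), and all 144 single ratios kept their direction and call. Of all genes under these alternatives, 5.93% (limit of 4-fold) to 37.8% (no level) were called lower in B16. In CT-26 the share was 10.2% (limit of 4-fold) to 16.7% (TMM factors). In the edgeR fit over both models the number of the 8 genes past an adjusted p of 0.05 was 0 with TMM factors, with median of ratios factors, with population as the single term and with haemoglobin genes left out of library sizes. It was 8 when libraries were scaled to total reads, with 128 genes higher and 619 lower of 18749 tested. With no filter on low counts it was also 8, with 167 genes higher and 820 lower of 40101 tested. With DESeq2 it was 4, with 300 genes higher and 1499 lower of 19887 tested. The cause was not tested. Per exon length, the Hbb-bt share became 21.6% in B16 residual, 22.4% in B16 CTRL, 12.3% in CT-26 residual and 10.96% in CT-26 CTRL. The Hba-a2 share became 29.7%, 33.0%, 34.3% and 26.3% in that order, and the alpha share 41.5%, 43.9%, 42.9% and 42.1%. Replicates could not be paired within a model, because each group holds 1 library. The fit over both models, with model as a term, compares the populations within models, and its value without that term is given above. Leaving out a library leaves no residual degree of freedom in the fit. Depth did not limit the 8 genes, the lowest of which had 2164 reads in a library, but the erythroid transcription factors had few reads.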
